A study of Mus musculus with 15 samples.

Results

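CD4+ T cells sorted from the spleens of mice labelled N-ras KO were cultured overnight either with 1 μg/ml of antibodies to CD3 and CD28, a low-level TCR stimulus, or without them. Samples were chosen by their titles alone, as N-ras KO stimulated 1 to 3 and N-ras KO control 1 to 3, and make up 6 of the 15 samples of the series. The response was taken as the stimulated minus the control value of the same replicate number, which gives 3 differences for each probe set. All 6 samples came from the 129/SJ strain and from animals aged 6 to 20 weeks, which the labels give as homozygous KO offspring of heterozygous N-ras parents, with littermates as the WT animals. The same 2 conditions in WT CD4+ T cells, 3 samples each, served for comparison, and the 3 thymocyte samples were not used.

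CD3 is the signalling part of the T cell receptor and CD28 its costimulatory partner, so antibodies to both stand in for antigen. The receptor loads Ras proteins with GTP through the exchange factors RasGRP and Sos, and Ras starts the Raf, MEK and ERK kinase cascade. ERK then drives the immediate early genes, whose proteins turn on later genes for cytokines, receptors and growth, while Dusp phosphatases and Sprouty proteins damp the cascade. N-ras, H-ras and K-ras are closely related members of this family, and lymphocytes express more than one of them.

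In the deposited values, the N-ras KO control samples had a median of 0 on every probe set, so every value given here is a log2 difference from that median and no gene's brightness is known. Levels can therefore be compared neither between probe sets nor between genotypes. In these bulk samples, a change in the number of cells of a type and a change in RNA per cell cannot be told apart. Of the 10 measured markers of CD4+ T cells, 0 were called at the thresholds given below, against 2.09% of all genes called higher and 2.26% lower. A count of 0 among 10 is near these shares. All 3 differences were below 0 for 3 of the 10 (30%, against 13% of all genes), and Cd4 itself differed by -0.30, -0.04 and -0.30.

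The Nras gene, the knocked-out gene itself, did not have a like level in all samples labelled N-ras KO. On probe set 1422687_at the control samples 1 to 3 had -0.28, 0.00 and 1.70, and the stimulated samples 0.04, -0.46 and 1.21. On 1454060_a_at they had 0.00, -0.04 and 2.04, and then 0.51, 0.08 and 2.09. Both samples numbered 3 were thus the highest of their group, by a mean of 1.63 and 1.93 over the other 4 samples on these probe sets and by 1.19 on 1422688_a_at. Among the WT samples, both numbered 1 were the lowest on 1454060_a_at, at -2.68 and -3.04, where the other 4 lay between -0.10 and 0.28. The Nras values of the libraries labelled N-ras KO 3 and WT 1 are unlike those of the others of their label, and the text names calls that were lost without replicate 3. Where the probes lie relative to the disrupted part of the gene was not examined here, so the values do not tell which genotype a sample has. Stimulation itself moved Nras by means of -0.21, 0.04 and 0.22 on the 3 probe sets, none of which was called.

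**Figure D1:**
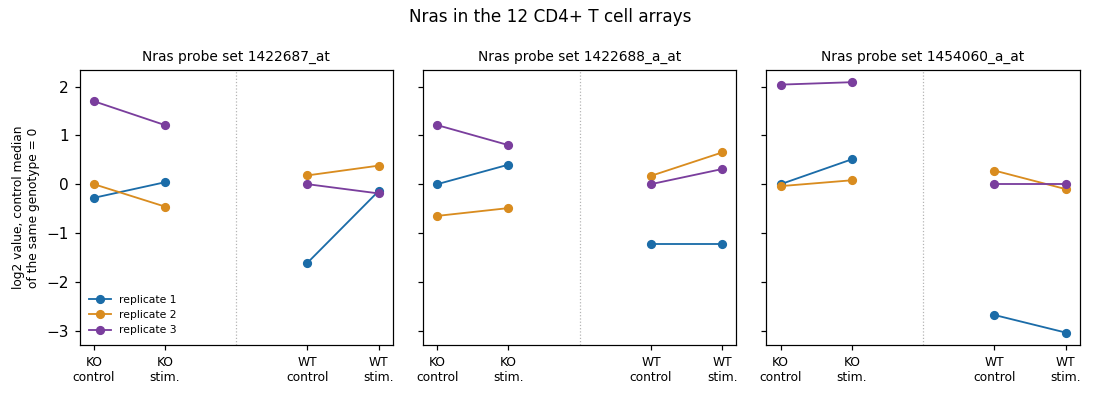
The 3 Nras probe sets in each of the 12 arrays of CD4+ T cells (x axis, genotype label and condition; y axis, log2 value relative to the control median of the same genotype label). Points are single arrays and lines join arrays of 1 replicate number; the N-ras KO arrays numbered 3 lie above the others, by 1.19 to 1.93, and the WT arrays numbered 1 lie low.

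Across the array, no probe set passed the adjusted threshold. The limma fit with the replicate number as a block gave 0 probe sets at an adjusted p under 0.05, with 0.507 as the smallest adjusted p, and 3200 probe sets (7.10%) at an unadjusted p under 0.05. The fit without the block and the methods' t-test also gave 0 adjusted calls, with 1162 and 857 probe sets at an unadjusted p under 0.05. The limma fit to the N-ras KO arrays alone gave 2037 such probe sets, with 0.904 as the smallest adjusted p. After quantile normalization the count was 1489. Each of these counts is a share below 0.05 of all probe sets. The excess over that share in the fit with the block was thus not found under these alternatives. At the study's thresholds, an unadjusted p under 0.05 and a change of at least 1.5-fold, 1017 probe sets (2.25%) were higher and 1196 (2.65%) lower after stimulation. "Called" is used below for these thresholds only. All 3 stimulated samples lay above all 3 controls on 1226 probe sets (2.72%) and below them on 999 (2.22%). Without the block, 522 probe sets were called higher and 535 lower. The p-values and standard errors of this fit rest on the spread of same-number differences in N-ras KO and WT samples together. The limma fit draws this spread towards that of the other probe sets. The methods say both that sorted cells were divided between the conditions and that RNA came from a different mouse for each condition. Whether this spread is one between mice is therefore not settled.

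Most of the array did not respond alike in the 3 replicates. All 3 differences were above 0 for 13.8% of probe sets, below 0 for 12.9% and of mixed sign for 73.4%. Across probe sets, which are not independent, the differences of replicates 1 and 2 correlated with r = 0.011, those of 1 and 3 with 0.0399 and those of 2 and 3 with 0.0407. Over the 49 immediate early and activation receptor genes the same correlations were 0.507, 0.42 and 0.495. They came down to 0.168, -0.0324 and 0.261 once Egr2 and Nr4a1 were left out, so the agreement over the activation genes rested on these 2 genes. The spread of the differences was largest in replicate 3, with an SD of 0.794 over probe sets against 0.739 and 0.641 in replicates 1 and 2.

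**Figure D2:**
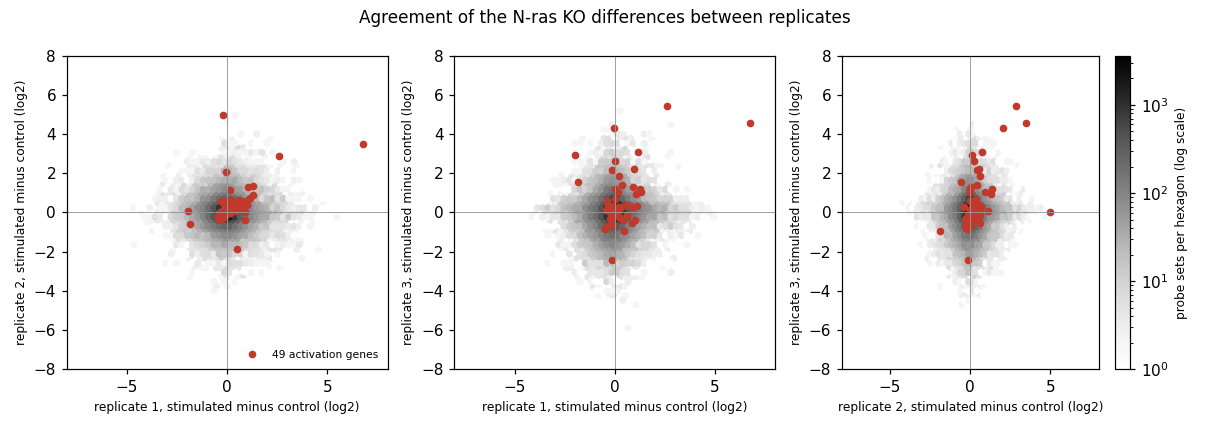
Stimulated minus control differences (log2) of 1 replicate against another, for each pair of the 3 N-ras KO replicates. Grey hexagons count all probe sets on a log scale and red points are the 49 immediate early and activation receptor genes; over all probe sets r was 0.011 to 0.0407, and Egr2 and Nr4a1 lie far up and to the right in every panel.

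Egr2 and Nr4a1, both immediate early genes, had the largest differences shared by all 3 replicates. With 1 probe set per gene, 380 of 18194 genes (2.09%) were called higher and 411 (2.26%) lower, and 4 of 26 immediate early genes were called higher (Egr1, Egr2, Nr4a1 and Fosb) and 0 lower. The median over the list was 0.32 (0.13 without replicate 3), against 0.01 over all genes, and was 0.03, 0.15 and 0.32 in replicates 1 to 3. The sequence before the transcription start is shown for the 3 called members with a RefSeq promoter, since these genes answer the ERK cascade without new protein synthesis. Each run holds the 250 bases before the start in GRCm38.p6, 5′ to 3′, and capitals mark matches to the motifs searched.
Egr2, chr10:67535249-67535498, plus strand: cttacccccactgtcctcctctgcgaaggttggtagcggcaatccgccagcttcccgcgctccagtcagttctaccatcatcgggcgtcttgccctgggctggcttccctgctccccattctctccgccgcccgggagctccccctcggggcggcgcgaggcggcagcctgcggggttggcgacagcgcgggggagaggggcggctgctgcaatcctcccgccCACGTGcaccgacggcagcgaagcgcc
Nr4a1, chr15:101266596-101266845, plus strand: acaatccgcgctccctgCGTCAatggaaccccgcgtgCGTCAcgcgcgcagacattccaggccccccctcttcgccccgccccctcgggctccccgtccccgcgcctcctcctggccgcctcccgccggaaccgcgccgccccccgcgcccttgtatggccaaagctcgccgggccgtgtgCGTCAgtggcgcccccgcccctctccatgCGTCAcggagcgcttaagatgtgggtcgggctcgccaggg
Fosb, chr7:19310046-19310295, minus strand: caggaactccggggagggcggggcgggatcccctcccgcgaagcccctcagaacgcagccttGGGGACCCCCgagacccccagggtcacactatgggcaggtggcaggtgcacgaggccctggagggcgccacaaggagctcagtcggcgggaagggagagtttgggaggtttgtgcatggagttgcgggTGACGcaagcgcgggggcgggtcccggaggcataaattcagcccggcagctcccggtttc
The capitals in the Nr4a1 promoter are 4 short cAMP response elements (TGACG on either strand), the one in the Egr2 promoter an E-box (CACGTG), and those in the Fosb promoter an NF-kappaB site and 1 short cAMP response element. For Egr2, which has 5 listed starts, the most upstream start was used. The short element, which also lies within the full one, was added after these sequences were seen and was held by 27.1% of the 14453 promoters of genes on the array, 24.9% of those called higher and 30.5% of those called lower. A full cAMP response element (TGACGTCA) was held by 3.75% of the promoters of genes called higher, 1.59% of those called lower and 2.65% of all. For the AP-1 site (TGANTCA) the shares were 5.8%, 4.44% and 6.28%, for the E-box 8.53%, 8.25% and 9.04%, for the CArG box 2.39%, 1.27% and 1.38%, and for the NF-kappaB site 6.83%, 6.35% and 4.94%. These shares describe windows of 300 bases, 250 before and 50 after the start.

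Egr2, a zinc finger transcription factor that limits T cell activation, had the largest difference of the immediate early genes. On probe set 1427682_a_at its values were -2.78, 0.11 and 0.00 in control samples 1 to 3 and 3.98, 3.61 and 4.55 in the stimulated ones. Every stimulated sample lay above every control sample, and the mean difference was 4.94 (standard error 0.61, 30.6-fold, adjusted p = 0.520 from limma). The second probe set of Egr2, 1427683_at, gave 5.40 (standard error 0.76). Nr4a1, an orphan nuclear receptor widely used as a reporter of T cell receptor signalling, went from 0.00, 0.15 and -1.24 to 2.58, 3.03 and 4.17. Its samples did not overlap either, and the mean difference was 3.62 (standard error 0.53, 12.3-fold, adjusted p = 0.528 from limma). Without replicate 3 the differences were 5.13 for Egr2 and 2.73 for Nr4a1, and both genes kept their call under every alternative run.

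The 2 other called members had smaller differences. Egr1, the best known early target of ERK, differed by 1.31, 0.89 and 1.03, but its control sample 3, at 1.28, lay above stimulated samples 1 and 2, at 0.67 and 0.89. Without the replicate block Egr1 lost its call. Fosb, an AP-1 subunit, went from -0.12, 0.00 and 0.38 to 0.84, 0.55 and 2.58, with no overlap between the groups, but lost its call without replicate 3, at 0.75. Fos and Jun, the classical AP-1 subunits, gave no such agreement. Fos differed by -0.05, 2.04 and 4.32 and Jun by -1.83, -0.61 and 1.54. Myc differed by 0.02, 0.01 and 1.21, so only the library labelled N-ras KO 3 was over 0.1. Egr3, a relative of Egr2, differed by 0.04, 0.04 and 0.20 on the probe set taken for the list, but by 0.31, 4.91 and 4.01 on 1436329_at, which was called higher (mean 3.07, standard error 0.84), a call lost without replicate 3, and is named after its values were seen. Btg2, an antiproliferative gene of the list, differed by -0.39, -0.32 and -0.76, with groups that did not overlap, without reaching 1.5-fold.

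**Figure D3:**
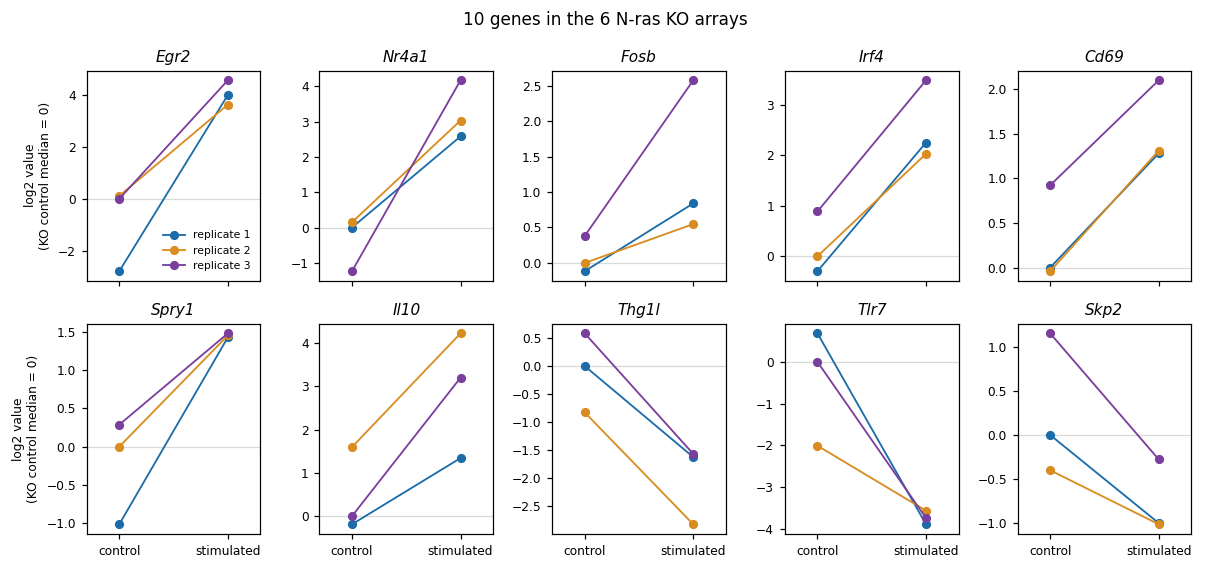
Values of 10 genes in the 6 N-ras KO arrays (x axis, condition; y axis, log2 value relative to the median of the control arrays; each panel has its own scale). Lines join the control and stimulated array of 1 replicate number. On the probe sets drawn, all lines of the first 7 genes go up and all lines of Thg1l, Tlr7 and Skp2 go down.

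Genes that ERK turns on to damp its own pathway were higher in a few cases. Of 20 measured ERK feedback and output genes, Spry1 and Phlda1 were called higher (10%, against 2.09% of all genes) and 0 lower. The median over the list was 0.20, and 0.06 with the mean over all probe sets of each gene. On probe sets not taken for the list, Spred1 was called lower, at -0.59 on 1428777_at and -1.41 on 1445228_at. Of these 2 calls, named after their values were seen, only that on 1428777_at held without replicate 3. Spry1, a Sprouty protein that inhibits Ras-ERK signalling, went from -1.01, 0.00 and 0.29 to 1.42, 1.45 and 1.48. The stimulated samples were close to each other and above all controls, with a mean difference of 1.69 (standard error 0.34, 3.23-fold, adjusted p = 0.572 from limma). Phlda1 differed by 2.46, -0.02 and 1.11, and its call was lost without replicate 1 or 3. Among the phosphatases, Dusp1 had non-overlapping groups but a mean of only 0.44, and Dusp4 differed by 0.30, 0.48 and 2.68. Dusp6, the ERK phosphatase of the cytoplasm, differed by 0.16, -0.98 and 0.26.

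Few of the kinases and exchange factors upstream were called on the probe sets taken for the list. Of 23 measured members of the Ras to ERK list, 0 were called higher and 1 lower, with a median of -0.06 (-0.0017 without replicate 3). The called gene was Ksr1, a scaffold that holds Raf, MEK and ERK together, which differed by -0.58, -0.45 and -0.91. Its control and stimulated samples overlapped, and the call was lost without the block and without replicate 1 or 3. Rasgrp1, the main Ras exchange factor of T cells, differed by -0.75, 1.21 and -1.77, so its replicates had no common direction. Other probe sets, named after their values were seen, were called lower for Rasgrp2 (-1.70), Braf (-1.13), Araf (-1.09) and Map2k2 (-0.69). Of these calls, only that of Braf held without replicate 3. Of 27 genes of the T cell receptor complex and its proximal signalling, Malt1, a paracaspase of the NF-kappaB arm, was called higher, at 0.69 (standard error 0.24), and 0 were called lower. The Malt1 call was lost without the block and without replicate 1 or 3. On 1442963_at, a probe set not taken for the list, Plcg1 was called lower, at -1.06, a call that held without replicate 3.

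Of 23 activation receptors and costimulatory molecules, 4 were called higher (Cd69, Cd83, Tnfsf8 and Lag3) and 0 lower, with a median of 0.27. Cd69, the standard early activation marker, went from 0.00, -0.04 and 0.92 to 1.28, 1.31 and 2.10. The groups did not overlap, and the 3 differences of 1.28, 1.35 and 1.18 were close to each other (mean 1.27, standard error 0.18, 2.41-fold, adjusted p = 0.520 from limma). The call of Cd69 held under every alternative run. Cd83, a surface molecule of activated lymphocytes, differed by 1.06, 1.31 and 0.93, with groups that overlapped because control sample 3 was at 1.13. Tnfsf8 (CD30 ligand) differed by 1.10, 0.67 and 0.31. Lag3, an inhibitory receptor, differed by 1.14, 0.75 and 3.10 and lost its call without replicate 3. Ctla4, another inhibitory receptor, had non-overlapping groups with a mean of 0.50, below 1.5-fold. The interleukin-2 receptor chains did not move together, since Il2ra differed by 0.90, 0.03 and 1.31 and Il2rb by -0.48, -0.16 and -0.85. Cd28, Icos and Cd5 had means between 0.00 and 0.08 in size.

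Tnfrsf9 (4-1BB), a costimulatory receptor, had probe sets that disagreed. On 1428034_a_at it went from 0.00, -0.06 and 0.08 to 1.61, 2.25 and 2.46, a mean difference of 2.10 (standard error 0.44, adjusted p = 0.574 from limma) without overlap. On 1421481_at, the probe set taken for the list, it differed by -0.26, -0.36 and -0.35, and on 1460469_at, also called higher, by -0.15, 1.12 and 1.63, a call lost without replicate 3. Nr4a3, the relative of Nr4a1, likewise differed by 1.56, 1.41 and 2.53 on 1438796_at, which was called higher and is named after its values were seen, and by 0.03, 0.22 and 2.60 on the probe set taken for the list. The call of Tnfrsf9 was lost without the block.

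Irf4, a transcription factor whose level follows the strength of T cell receptor signalling, had the second smallest p on the array. Its values on 1421173_at were -0.29, 0.00 and 0.89 in the controls and 2.25, 2.03 and 3.48 after stimulation, with no overlap. The differences of 2.54, 2.03 and 2.59 averaged 2.39 (standard error 0.21, 5.23-fold, adjusted p = 0.507 from limma), and its second probe set gave 2.24 (standard error 0.42). Of 24 helper lineage and effector transcription factors, Irf4 and Eomes were called higher and 0 lower. Eomes, a factor of cytotoxic and memory cells, differed by 1.36, 0.49 and 4.37, and its call was lost without replicate 1 or 3. Myb, a factor of T cell survival and proliferation, was called on 2 probe sets without overlap, at 1.89 and 1.06.

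Cytokine genes differed from each other. Of 21 measured, Il10 and Tnf were called higher and 0 lower on the probe sets taken for the list. The list median was 0.17 (0.08 without replicate 3). On 1450334_at, a probe set not taken for the list and named after its values were seen, Il21 was called higher, at 2.49. This call held without replicate 3, at 1.96. Il10, an anti-inflammatory cytokine, went from -0.19, 1.59 and 0.00 to 1.34, 4.22 and 3.20. Its groups overlapped because control sample 2 lay above stimulated sample 1, but the 3 differences of 1.53, 2.63 and 3.20 were all large (mean 2.45, standard error 0.35, 5.46-fold, adjusted p = 0.520 from limma). Tnf differed by 0.78, 1.08 and 1.25, and its call was lost without the block and without any 1 of the 3 replicates. Il2, the growth factor of T cells, differed by -1.59, 1.29 and 1.90 and Ifng by -0.32, 1.41 and 4.28. Both had no common direction, and Il4 differed by 1.10, 0.45 and -0.06. Among 22 chemokines and their receptors, Ccl22 was called higher, with differences of -0.57, 2.54 and 4.19, and Ccl5 lower, at -0.64. Neither call held without replicate 3.

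In the NF-kappaB list, 1 of 20 genes was called higher and 1 lower, and the medians of replicates 1 to 3 were -0.26, 0.17 and 0.50. Rel (c-Rel), the subunit most tied to T cell activation, went from 0.00, 0.39 and -1.35 to 0.82, 3.40 and 2.25, with no overlap and a mean difference of 2.48 (standard error 0.50, 5.57-fold, adjusted p = 0.572 from limma). Nfkbie, an inhibitor of the pathway, was called lower at -0.68 (standard error 0.21), a call lost without the block and without replicate 1. Nfkb2 and Nfkbid differed mostly in the library labelled N-ras KO 3, by 2.79 and 3.48, against -0.67 and -0.08 for Nfkb2 and 0.25 and 0.35 for Nfkbid in the other replicates. Of 21 STAT and SOCS genes, Socs4 and Cish were called higher and 0 lower, and the call of Cish was lost without any 1 of the 3 replicates.

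The other genes with the largest shared increases came from varied families. By the smallest of the 3 differences, Egr2, Nr4a1 and Irf4 were followed by Adam34, an ADAM family gene, which went from 0.00, -0.11 and 0.03 to 4.09, 2.15 and 2.06. Its groups were far apart, with a mean difference of 2.79 (standard error 0.53, adjusted p = 0.572 from limma). Cops3, a subunit of the COP9 signalosome, was called on 2 probe sets without overlap, at 1.84 and 1.65. Prr5l, a partner of the mTORC2 complex, was called on 2 probe sets at 1.84 and 2.07, but its samples overlapped and both calls were lost without the block. Lpcat2, an acyltransferase of phospholipid remodelling, differed by 2.99 (standard error 0.50) and Erc2, a presynaptic scaffold gene, by 2.40 (standard error 0.30), both without overlap. Atat1, a tubulin acetyltransferase, differed by 1.78 (standard error 0.17) with overlapping groups. On further probe sets, without a call, Cops3 was at 0.02 and 0.08, Prr5l at 0.47, Lpcat2 at -0.08 and Atat1 at -0.19 to 0.44. Gja1 (connexin 43), a gap junction protein, was called on 5 probe sets, at 0.71 to 1.74, and all 5 overlapped because the library labelled N-ras KO control 1 was high, at 0.66 to 3.44. The call on 1415800_at was also lost without replicate 3. Mettl1, a tRNA methyltransferase, Gpt2, a transaminase, and Ctsh, a lysosomal protease, were each called on 2 probe sets, at 0.64 to 1.57, and none of these 6 calls held without the block. The call of Ctsh on 1418365_at was lost without replicate 3 too. Further probe sets without a call were at 0.19 for Gja1, 0.47 for Mettl1, and -0.46 and 0.18 for Gpt2. In all, 35 genes were called higher and 60 lower on 2 or more probe sets with 3 differences of 1 sign, out of 9012 genes with 2 or more probe sets.

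Thg1l, a tRNA guanylyltransferase called lower on 1453268_at, had the smallest p on the array. It went from 0.00, -0.83 and 0.58 to -1.62, -2.82 and -1.57, with no overlap and a mean difference of -1.92 (standard error 0.15, 3.79-fold lower, adjusted p = 0.507 from limma). On its other probe set, 1432393_a_at, Thg1l differed by 0.48, 0.89 and 0.11, without a call. The direction of Thg1l thus depends on the probe set. Tlr7, an endosomal receptor of single-stranded RNA, went from 0.69, -2.01 and 0.00 to -3.90, -3.57 and -3.75. Its stimulated samples were close to each other and below every control, with a mean difference of -3.30 (standard error 0.64, 9.82-fold lower, adjusted p = 0.572 from limma), and a second probe set gave -3.39. Another probe set of Tlr7, 1422010_at, went the other way and was called higher, at 0.99 (standard error 0.35), so the direction of Tlr7 depends on the probe set. Fancb, of the Fanconi DNA repair complex, differed by -2.16 (standard error 0.35). Cenpk, a kinetochore protein, differed by -1.76 (standard error 0.29). Vps13c, a lipid transfer protein, differed by -2.54 (standard error 0.52), Ammecr1 by -2.11 (standard error 0.39) and Aqp9, a water and glycerol channel, by -1.67 (standard error 0.28). Samples of these 5 genes did not overlap on these probe sets, and none of these calls was lost under any alternative run. No other probe set of the 5 genes was called. On these others, Ammecr1 was at 1.03, Fancb at 0.23, Vps13c at 0.07 and Aqp9 at 0.10. Cenpk was at 0.37 on 1457001_at and -0.17 on 1437068_at. Deptor, an mTOR inhibitor, and Nudt12, an NADH hydrolase, were at -1.58 and -1.64 with overlapping groups, and both calls were lost without the block and without any 1 of the 3 replicates.

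Some lower genes were called on several probe sets. Mbp (myelin basic protein), whose gene also makes transcripts in lymphocytes, was called lower on 5 probe sets, at -0.78 to -1.42, and 4 of the 5 calls were lost without the block and that on 1454651_x_at without replicate 3. Dusp16, a phosphatase of the JNK and p38 kinases, was called on 2, at -1.10 and -1.54, with a low control sample 3 (-1.95 on both), and the call on 1418401_a_at was lost without replicate 3. Kif3a, a kinesin motor, and Ntrk3, a neurotrophin receptor, were each called on 3 probe sets, at -0.61 to -1.18. The Kif3a calls on 1449841_at and 1436560_at were lost without replicate 3. Ago4, an Argonaute protein, was called on 2, at -1.72 and -2.32. Skp2, the F-box protein that marks the cell cycle inhibitor p27 for degradation, was called on 2 probe sets. On 1460247_a_at it went from 0.00, -0.40 and 1.16 to -1.0, -1.01 and -0.28, with overlapping groups and a mean difference of -1.02 (standard error 0.19), and on 1436000_a_at the groups did not overlap and the mean was -0.91 (standard error 0.26). Another probe set, 1418969_at, gave -0.96 (standard error 0.45) and was not called. The call on 1436000_a_at was lost without the block and without replicate 3.

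Of 34 ribosome biogenesis genes, 0 were called higher and 1 lower (Nip7, at -0.60), and the medians were -0.06, -0.09 and 0.34 in replicates 1 to 3. Of 24 Myc, nutrient uptake and glycolysis genes, Odc1, the first enzyme of polyamine synthesis, was called higher, at 0.82, and the medians were -0.0025, 0.04 and 0.34. Neither Nip7 nor Odc1 kept its call without replicate 3. Of 40 genes of oxidative phosphorylation and 36 proteasome subunits, 0 were called with 1 probe set each. On other probe sets, named after their values were seen, Psmd11 was called higher (1.04) and Ndufb5 lower (-0.60). Only the Psmd11 call held without replicate 3. Of the 36 proteasome means, 8 were above 0 (22.2%, against 52.2% of all genes). In replicate 3 the medians of ribosome biogenesis, oxidative phosphorylation and mitochondrial ribosomal protein genes were 0.34, 0.20 and 0.18, whereas in replicates 1 and 2 all were below 0.

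Few genes of the remaining lists were called. Among 20 genes of the Bcl2 family and cell death, Bak1, a killer protein of the mitochondrial membrane, was called higher and Bcl2l11 (Bim) and Fasl, which promote cell death as well, lower. Without replicate 3 neither Bcl2l11 nor Fasl was called, and the list held 1 higher and 0 lower. Of 27 cytosolic ribosomal protein genes Rps18 was called higher, a call lost without replicate 3, and of 35 mitochondrial ones Mrps5 lower. Of 19 cytosolic aminoacyl-tRNA synthetases, 25 heat shock and chaperonin genes and 26 interferon-stimulated genes, 0 were called with 1 probe set each. Other probe sets, named after their values were seen, were called lower for Cct4 (-0.91 and -1.45), Dnajc2 (-1.94) and Ifi35 (-0.65). Of these calls, only that of Ifi35 was lost without replicate 3.

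Of 33 genes of the G1 to S transition and DNA replication, Ccnd2 (cyclin D2) and Pole2 were called higher, at 0.93 and 1.58, and Gins1 lower, at -0.95. None of these 3 calls held without replicate 3. Of 26 mitosis genes, Cdc20, Bub1 and Ttk were called higher (11.5%, against 2.09% of all genes) and 0 lower, and 34.6% had 3 differences above 0, against 14.2% of all genes. The mitosis median was 0.19, and -0.03 without replicate 3, with 2 genes then called higher. Cdc20, an activator of the anaphase promoting complex, differed by 3.46, 0.99 and 0.71, and Bub1, a spindle checkpoint kinase, by 2.77, 2.57 and -0.33. Ttk, another checkpoint kinase, was at 0.86 and lost its call without any 1 of the 3 replicates. Of 23 quiescence and homing genes, 5 had a mean above 0 (21.7%, against 52.2% of all genes), and Dapl1, a gene of resting T cells, was called lower at -0.66 (standard error 0.15), a call lost without replicate 1. Klf2 and Il7r, which hold T cells in the resting, recirculating state, were at -0.13 and -0.14, both without a call. Cholesterol genes split, with Hsd17b7 called higher at 1.23 and Sc5d and Mvd lower at -1.53 and -0.64. In the p53 and stress list, Phlda3 was called lower, at -1.49, and Hmox1, the heme oxygenase, higher, at 0.97. Of these cholesterol and stress calls, those of Sc5d, Mvd and Hmox1 were lost without the block and without replicate 3, and those of Hsd17b7 and Phlda3 held under every alternative run.

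**Figure D4:**
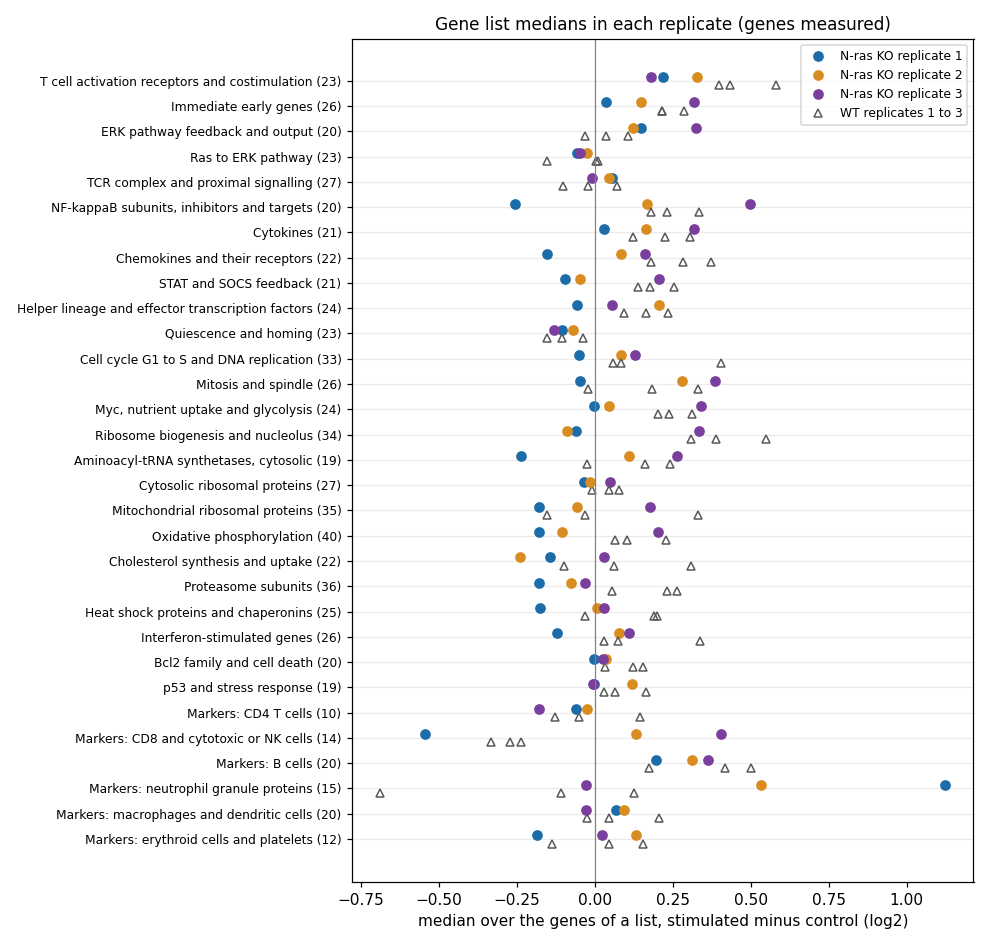
Medians of stimulated minus control (log2) over the genes of 31 lists, with the number of genes measured in parentheses; filled circles are the 3 N-ras KO replicates and open triangles the 3 WT replicates. Activation receptors and immediate early genes lie above 0 in all 6, ribosome biogenesis lies between -0.09 and 0.34 in N-ras KO and between 0.31 and 0.55 in WT, and neutrophil granule proteins reach 1.12 in N-ras KO replicate 1.

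The WT samples gave values of the same sign for several activation genes. Egr2 differed by 2.46, Nr4a1 by 2.22, Irf4 by 1.59, Spry1 by 1.18, Cd69 by 1.13, Egr1 by 1.00 and Cd83 by 0.96 there. No difference between the genotypes' responses passed the adjusted threshold: limma gave 0 probe sets at an adjusted p under 0.05 (smallest 0.961) and 2067 (4.58%) at an unadjusted p under 0.05, and the fit without the block gave 0 and 586. With 1 probe set per gene, 800 genes (4.4%) were at an unadjusted p under 0.05. For Cd69 the N-ras KO response exceeded the WT response by 0.14 (standard error 0.25), and for Egr2 by 2.48 (standard error 0.86). Several genes named above had opposite signs by genotype. They were named for their N-ras KO values, which are also part of this contrast. Their unadjusted p-values therefore do not test a difference between the genotypes. Skp2 was higher after stimulation in WT, at 0.73 on 1460247_a_at, so the responses differed by -1.75 (standard error 0.26, unadjusted p = 0.000533 and adjusted p = 0.961 from limma). On 1453268_at, Thg1l was at 0.27 in WT, with a difference of -2.19 (standard error 0.21, unadjusted p = 4.03e-05 and adjusted p = 0.961 from limma). Tlr7 was at 1.02, Cenpk at 0.42 and Phlda3 at 0.88 in WT. Lta (lymphotoxin alpha) differed by -0.67, -0.21 and -0.62 in N-ras KO and by a mean of 0.75 in WT. Il10 was at 0.36 and Lpcat2 at -0.36 in WT, with adjusted p = 0.961 from limma for both differences between the genotypes. The WT medians of the ribosome biogenesis list were 0.39, 0.31 and 0.55, with 5 of 34 genes called higher there against 1.59% of all genes, and those of the proteasome list 0.23, 0.05 and 0.26. In N-ras KO the proteasome medians were -0.18, -0.07 and -0.03. A difference between genotypes in these medians was not tested.

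The study followed up genes from its comparison of stimulated WT with stimulated N-ras KO cells, and 7 were measured on probe sets of their own. Of these 7, 0 were called in the response of N-ras KO cells. Of the 22 measured genes of the wider list of the study's candidates, 0 were called, against 2.09% of all genes called higher and 2.26% lower. In its comparison the paper excluded genes that differed between stimulated and unstimulated cells of either genotype. The counts of 0 were therefore in part set by that selection and are no finding about these genes. Without replicate 3, 3 of the 22 were called higher (Ngp at 1.85, Camp at 2.08 and Snai1 at 0.66), and Skp2, a member taken on 1418969_at, was called lower on its 2 other probe sets described above, 1 of which lost its call without replicate 3. Dntt (terminal transferase) differed by a mean of -0.05 (standard error 0.68), Lars2 (mitochondrial leucyl-tRNA synthetase) by -0.21 (standard error 0.50), Ehd1 by 0.21 (standard error 0.69) and Chst1, a sulfotransferase, by 0.19 (standard error 0.14). Mbnl3 differed by 0.58 (standard error 0.30), Glmn by -0.30 (standard error 0.31) and Ncl (nucleolin) by 0.05 (standard error 0.15). In WT, Ehd1 was at 2.00, Mbnl3 at 1.44, Lars2 at 1.17 and Chst1 at -0.68.

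Markers of other cell types moved with stimulation in part. Of 20 measured B cell markers, 4 were called higher (Blnk, Fcer2a, Spib and H2-Eb1) and 0 lower, 9 had 3 differences above 0 (14.2% of all genes did, and 13% had 3 below 0), and the median was 0.38. Blnk, an adaptor of the B cell receptor, differed by 1.79, 1.51 and 3.70 without overlap, and Fcer2a (CD23) by 0.61, 1.95 and 1.89. Other members of the list were mixed. Cd79a was at 0.47, Ms4a1 at 0.37, Pax5 at 0.02 and Cd22 at -0.04. Ighm, the heavy chain of IgM, differed by 0.56, -5.29 and -3.08. Of the other probe sets of Ighm, 3 were called lower, at -1.74 to -1.98, and all 3 lost their call without replicate 3. Probe sets not taken for the list were called higher for Ebf1 (0.70), H2-Ab1 (0.95) and Bcl11a (1.17 and 0.59). Without replicate 3 the calls of Ebf1 and H2-Ab1 held and those of Bcl11a were lost. The B cell list was also higher in WT, with a median of 0.40 and 5 genes called. Without replicate 3 the N-ras KO median was 0.23 and 4 genes were called, H2-Eb1 no longer among them. Spib was at 3.58 and 4.16 in the 2 libraries labelled N-ras KO 3 and between -0.40 and 0.99 in the other 4.

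Neutrophil granule genes set the replicates apart. The median over 15 measured genes was 1.12 in replicate 1, 0.53 in replicate 2 and -0.03 in replicate 3, and the WT medians were -0.11, 0.13 and -0.69. Camp, Ngp, Ltf and Lcn2, which encode antimicrobial granule proteins, differed by 0.99 to 2.65 in replicates 1 and 2 and by -0.16 to -1.02 in replicate 3. Mpo (myeloperoxidase) differed by 5.62 in replicate 1, -1.73 in replicate 2 and 0.41 in replicate 3. Chil3 and Mmp8 were called higher and 0 lower. Without replicate 3 both lost their call, and 6 other genes were called higher (Camp, Lcn2, Ltf, Ngp, S100a8 and S100a9) and Cybb lower. The medians of 14 CD8, cytotoxic and NK cell markers were -0.55, 0.13 and 0.40 in replicates 1 to 3. Of these markers, Eomes was called higher and Cd8b1 lower, at -0.77 (7.14% each, against 2.09% and 2.26% of all genes). Without replicate 3 neither was called, and Cd8a, at -2.03, and Klrc1, at -0.86, were called lower. Of 20 macrophage and dendritic cell markers and 12 erythroid and platelet markers, 0 were called with 1 probe set each. On another probe set, 1448162_at, Vcam1 was called higher, at 1.73, a call that held without replicate 3. Summed marker levels cannot be given for values without brightness, and the part of these cells in the results above was not tested. The N-ras KO medians of B cell markers were above 0 in all 3 replicates and those of neutrophil genes in 2.

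**Figure D5:**
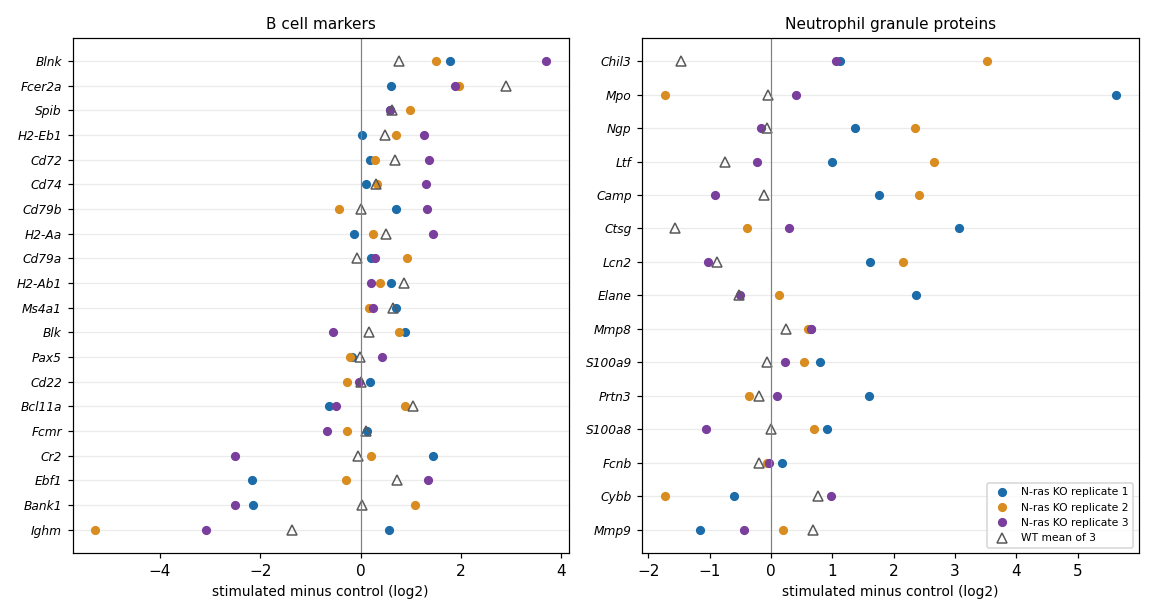
Stimulated minus control (log2) for 20 B cell markers and 15 neutrophil granule genes; filled circles are the 3 N-ras KO replicates and open triangles the mean of the 3 WT replicates. Blnk, Fcer2a and Spib lie above 0 in all replicates, while Camp, Lcn2 and Ngp lie above 0 in replicates 1 and 2 and below 0 in replicate 3.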

How the data were processed

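Biotin-labelled cRNA from CD4+ T cells was hybridised to Affymetrix mouse arrays. The authors deposited log2 values that they made with RMA in GeneSpring, including quantile normalization and a shift of each probe set to the median of its control samples. In the deposited log2 table the N-ras KO controls had a median of 0 on every probe set. No scanner intensities were used here, so brightness is unknown. Where yield was low the authors amplified cRNA further, in samples they do not name.

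Groups and replicate numbers came from the sample titles. In R 4.3.3, limma 3.58.1 (lmFit, eBayes, two-sided, Benjamini-Hochberg over all probe sets) was fitted to the 12 CD4+ arrays, with the replicate number within genotype as a block. The methods do not settle whether equal numbers share a mouse. Deviations from the group means correlated with r = 0.361, 0.394 and 0.626 between samples of the same number, against -0.446 to 0.227 between different numbers, and the numbers were taken as pairs. The difference between the genotypes' responses was the interaction contrast. The steps were tested on simulated data first.

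A platform annotation gave 1 gene for 34958 probe sets, several for 932 and none for 9211. In lists, each of 18194 genes was represented by 1 probe set, and 749 of 815 list entries were measured, 4 under an older symbol. Genes named are the 15 per direction with the largest smallest difference among called probe sets of 1 sign, up to 10 per direction called on 2 or more probe sets, up to 4 members of each list, and the genes the study followed up. Others are list members named for their role or for disagreement with a named probe set. The members, lists and tests were chosen with earlier results of these data known. Promoters are RefSeq sequences of GRCm38.p6. The alternatives were no block, the methods' t-test, N-ras KO arrays alone, renormalization, centring, array weights, robust variances, filters, another probe set per gene and leaving out replicates. The number of arrays limits the precision.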

Additional observations from a re-analysis of the deposited data

Results flagged for a closer look

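The proteasome list had a median response of -0.0819 in N-ras KO samples, with -0.18, -0.07 and -0.03 in replicates 1 to 3, and of 0.17 in WT samples, with 0.23, 0.05 and 0.26. It is given because every N-ras KO median was below 0 and every WT median above 0. The difference was not tested, and 0 of the 36 genes were called in N-ras KO samples on the probe sets taken for the list.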

How the results depend on the processing

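Against 1017 probe sets called higher and 1196 lower, the fit with no replicate block called 522 and 535, the methods' t-test 175 and 230, quantile normalization 639 and 651, and a 2-fold threshold 473 and 511. Leaving out 1 replicate gave 1287 to 1434 higher and 1325 to 1851 lower, the highest without replicate 2. Differences between genotypes at an unadjusted p under 0.05 numbered 2067, and 586 without the pairing. No alternative gave an adjusted p under 0.05, and the smallest was 0.0994, without replicate 2. Of the 72 probe sets named for size or for several probe sets, 43 kept their call without the block and 29 by the t-test. After quantile normalization 61 kept it, and with 1 replicate left out 59 to 62 did. None reversed, but these probe sets had been chosen for differences of 1 sign in all replicates. Their mean could therefore not change sign without the block, by the t-test or with 1 replicate left out. For these settings the lack of reversals shows nothing about stability. The causes of the changed counts and lost calls were not tested.

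Some list medians moved by more than the spread of the replicates. With 1 replicate left out, the median ranged from 0.1325 to 0.3625 for immediate early genes, -0.0802 to -0.0017 for Ras to ERK, -0.2029 to 0.0784 for interferon-stimulated, 0.0097 to 0.0769 for Bcl2 family, 0.2283 to 0.3699 for B cell, -0.0437 to 1.2427 for neutrophil and -0.1635 to 0.0136 for macrophage genes, and from -0.0078 to 0.0871 for the candidates of the study. Without N-ras KO 3 and WT 1 the values equal those without replicate 3, namely 0.1325 for immediate early, -0.0017 for Ras to ERK, 0.0097 for Bcl2 family, 0.2283 for B cell and 1.2427 for neutrophil genes. Quantile normalization gave -0.0177 for Ras to ERK, 0.0055 for TCR and 0.016 for Bcl2 family genes. Centring gave -0.0919 for Ras to ERK and 0.0251 for Bcl2 family genes, for which array weights gave 0.0199. The mean over a gene's probe sets gave 0.0558 for ERK feedback, -0.098 for Ras to ERK, -0.0249 for TCR, 0.1027 for cell cycle, 0.008 for Bcl2 family and -0.1192 for p53 genes.

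Some genes that were not called changed sign. With 1 replicate left out, the difference ranged from -1.1459 to 0.0674 for Araf, -0.4304 to 0.1256 for Rpl12, -0.9963 to 0.147 for Adgre1, -0.1004 to 2.4956 for Tfrc, -0.1052 to 1.4693 for Ppbp, -0.6689 to 0.0573 for Itga2b, -0.7056 to 0.4469 for Alas2, -0.1336 to 0.2732 for Nras on 1 probe set, -0.3166 to 0.655 for Ehd1, -0.7665 to 0.1016 for Lars2, -0.0776 to 0.117 for Ncl, -0.6135 to 0.0658 for Glmn and -1.0935 to 0.5738 for Dntt. Without N-ras KO 3 and WT 1, Araf was at 0.0674, Rpl12 at 0.1256, Adgre1 at 0.147, Ehd1 at -0.3166, Ncl at -0.0776 and Dntt at 0.3561. Quantile normalization gave -0.0364 for Ncl and 0.0777 for Dntt, and array weights 0.2333 for Dntt.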
